A study of Macaca fascicularis with 22 samples.

Results

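The genes described here carry nitrogen through the urea cycle or release it from glutamine. They were chosen by accession number, from a set of 10 human RefSeq ids with which the array annotates its probes. Of these, 8 had a probe, among 20217 probes in all for 19376 accessions: NAGS (NM_153006), CPS1 (NM_001875), OTC (NM_000531), SLC25A15 (NM_014252), ASL (NM_000048), ARG1 (NM_000045), ARG2 (NM_001172) and GLS2 (NM_013267). The ids of ASS1 and GLUD1 were not on the array. Each of the 8 genes had 1 probe in 2 spots, and all 8 passed the filter on dim signals, which kept 17117 probes.

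In the mitochondria of hepatocytes, NAGS makes N-acetylglutamate, the activator without which CPS1 does not work, and CPS1 joins ammonia and bicarbonate to carbamoyl phosphate. OTC passes this group to ornithine to give citrulline, and SLC25A15 exchanges ornithine and citrulline across the inner membrane. In the cytosol ASS1 and ASL turn citrulline into arginine, from which ARG1 releases urea, while ARG2 is the mitochondrial arginase found outside the liver as well. GLS2 and GLUD1 release ammonia from glutamine and glutamate. The complete cycle is a feature of the liver.

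RNA of cynomolgus macaque (Macaca fascicularis) neonates was measured on 22 single-colour arrays designed for the rhesus macaque. Lower birth weight (LBW) animals lay between the 5th and 25th birth weight centile and average birth weight (ABW) animals between the 50th and 75th. Both groups thus lie within the normal range. The paper says that growth was not manipulated experimentally, although the sample titles call LBW samples treated and ABW samples control. Dams and neonates were sedated with ketamine for the collection of cords and tissues. Skeletal muscle and the samples labelled umbilical cord each had 4 LBW and 4 ABW arrays, and those labelled liver had 3 of each. The paper describes the neonates as female. Per the methods all dams were mated to the same male, muscle was biceps femoris, and liver and muscle were taken within the first week after birth, whereas the labels say at birth. Per the methods the liver and muscle samples also came from the same neonates. The labels number the samples of a group without naming animals, so the fits treat the 22 arrays as independent and the p-values measure the spread between these samples.

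Levels are log2 signals relative to the array's 75th percentile, so that 0 is that percentile and a difference of 1 is a doubling. They compare 1 probe across arrays and never 1 probe with another. In bulk RNA, fewer cells of a type and less RNA per cell cannot be told apart. A probe is called well above background where the scanner software marked at least 1 of its spots so. Before scaling the 75th percentile was 315 to 2390 signal units, and 14594 to 17887 probes of an array were well above background. The 22 arrays lay on 6 slides. In skeletal muscle slide 1 carried the ABW and slide 2 the LBW arrays, and the effect of the slide cannot be told apart from that of birth weight. Cord-labelled LBW arrays filled slide 5, while the cord-labelled ABW arrays were shared by slides 4 and 6, so that no slide held both groups of this label either. Slide 6 was read with another software version.

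The labels of liver and umbilical cord go against their markers. The summed signal of 10 hepatocyte genes, in units of the array's 75th percentile, was 1090 to 3193 on the arrays labelled umbilical cord, 0.350 to 32.1 on skeletal muscle arrays and 0.653 to 1.49 on the arrays labelled liver. All 10 were higher on every cord-labelled than on every liver-labelled array, and ALB, APOA1, FGB and AHSG were well above background on no liver-labelled array. The summed signal of 7 matrix genes was 381 to 525 on the arrays labelled liver and 8.99 to 24.9 on those labelled umbilical cord. Striated muscle genes (5 on the array) were all higher on every skeletal muscle array than on every other array. The labels are therefore used below only as names of the groups.

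All 8 genes were highest on the arrays labelled umbilical cord. Every cord-labelled array lay above all 14 other arrays for each of the 8 genes, which held for 9.11% of all probes tested. With normexp background correction this was lost for ARG2, at -2.96 on cord-labelled ABW replicate 3 and -2.88 on liver-labelled ABW replicate 1. The difference from the arrays labelled liver passed an adjusted p under 0.05 for 8 of 8 genes (limma, Benjamini-Hochberg over 17117 probes), against 66.9% of all probes in either direction and 35.6% in this direction. Its median over the 8 genes was 9.65 on the log2 scale, or 9.06 with the 3 genes below background at their bound, beside 0.13 over all probes. All 8 genes were also lower in skeletal muscle than on the cord-labelled arrays, where 64.9% of all probes passed in either direction and 29.1% in this one. Their median difference, skeletal muscle minus cord-labelled, was -8.26.

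**Figure D1:**
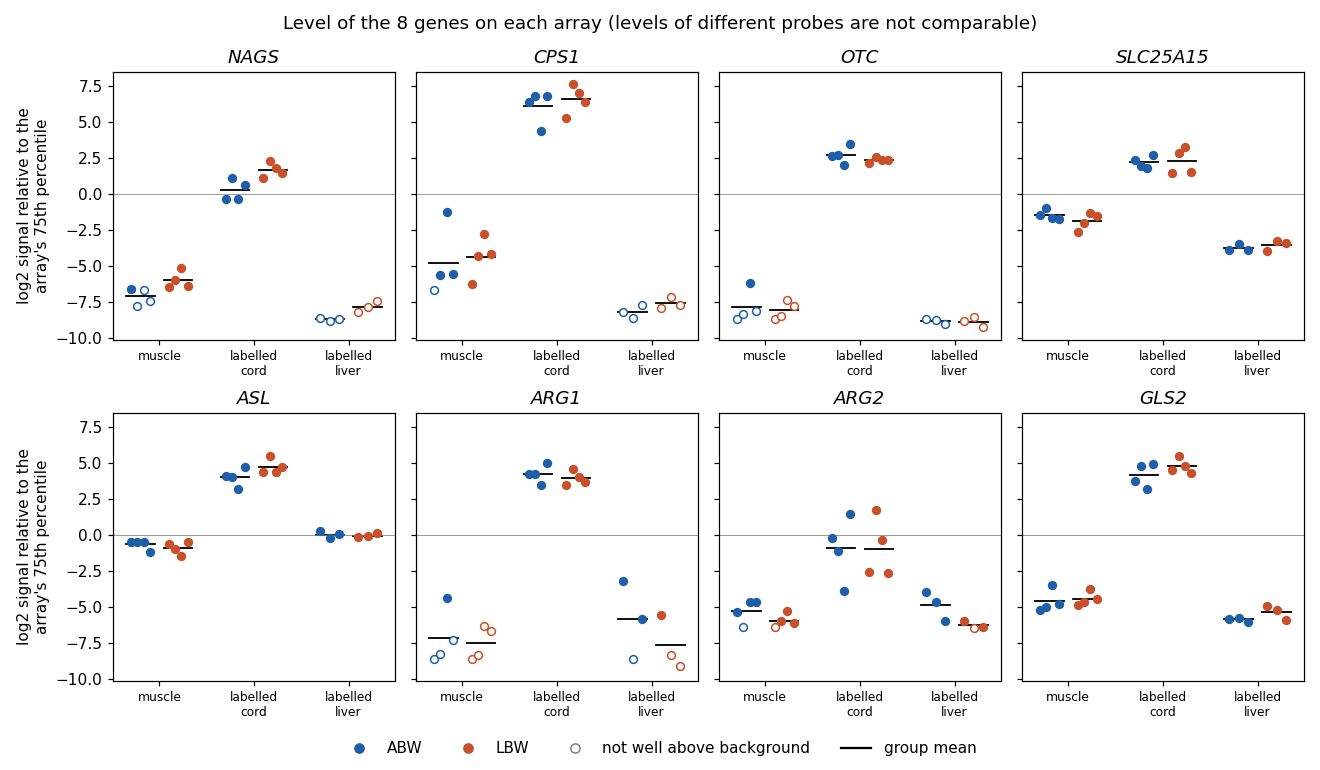
Level of each gene on each of the 22 arrays, as log2 signal relative to the array's 75th percentile, by label and birth weight group. Filled points were well above background and open points were not, black lines are group means, and the 8 cord-labelled arrays lie above the 14 others in every panel.

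NAGS makes the activator of the first step of the cycle. On the cord-labelled arrays its level was -0.33, 1.12, -0.34 and 0.67 in ABW and 1.15, 2.34, 1.87 and 1.45 in LBW. On the liver-labelled arrays it was -8.60, -8.78 and -8.64 in ABW and -8.17, -7.83 and -7.39 in LBW, none of them well above background. Cord-labelled arrays were thus at least 305-fold higher on this scale. For this bound each liver-labelled array was put at the lowest signal called above background on it, or at its measured signal where that was higher. A p-value beside a bound, here and below, is that of the measured difference (here limma adjusted p = 4.4e-16). With normexp background correction, which adds an offset to every signal, the difference was 4.83 on the log2 scale, under the log2 value of that bound, 8.25, and the bounds of CPS1 and OTC below move likewise. Of the skeletal muscle arrays, 1 ABW and all 4 LBW arrays had NAGS well above background.

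CPS1, the first enzyme of the cycle, read 6.40, 6.84, 4.42 and 6.84 on the cord-labelled ABW arrays and 5.29, 7.67, 7.04 and 6.42 on the LBW arrays. It was well above background on none of the 6 liver-labelled arrays, where it read -8.58 to -7.14, and the cord-labelled arrays were at least 13076-fold higher (adjusted p = 2.9e-13), or 13.67 on the log2 scale, against a difference of 10.24 with normexp. Among the labels skeletal muscle varied most, from -6.67 to -1.24, and 7 of its 8 arrays were well above background. The measured level of every skeletal muscle array lay above that of every liver-labelled array, as for 23.4% of all probes. This order rests in part on background, since ABW replicate 1 of skeletal muscle was not well above it either. The order was lost with normexp, at -3.70 on that array and -3.65 on liver-labelled LBW replicate 1. On average skeletal muscle was at least 6.67-fold higher, with its ABW replicate 1 taken at the measured level (limma adjusted p = 3.3e-04). This bound, 2.74 on the log2 scale, stands against a difference of 1.06 with normexp (adjusted p = 0.045), and without ABW replicate 3 of skeletal muscle the measured difference fell from 3.28 to 2.70.

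OTC, which forms citrulline, had levels of 2.65, 2.72, 2.04 and 3.48 on the cord-labelled ABW arrays and 2.19, 2.60, 2.39 and 2.40 on the LBW arrays. It was well above background on no liver-labelled array and on 1 skeletal muscle array, ABW replicate 3. The cord-labelled arrays were at least 938-fold higher than the liver-labelled ones (adjusted p = 1.5e-16), or 9.87 on the log2 scale, against a difference of 6.57 with normexp.

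SLC25A15, the ornithine carrier, was well above background on all 22 arrays. Its levels were 1.47 to 3.30 on the cord-labelled, -2.59 to -0.98 on the skeletal muscle and -3.95 to -3.25 on the liver-labelled arrays, with no overlap between any of the 3. The cord-labelled arrays were higher than the liver-labelled ones by 5.88 ± 0.29 (SE, n = 8 and 6) and skeletal muscle was higher by 1.97 ± 0.29 (n = 8 and 6, adjusted p = 4.9e-06).

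ASL, which splits argininosuccinate into arginine and fumarate, was also well above background everywhere. It spanned 3.24 to 5.51 on the cord-labelled, -1.42 to -0.43 on the skeletal muscle and -0.20 to 0.29 on the liver-labelled arrays. Skeletal muscle lay below the liver-labelled arrays by 0.77 ± 0.24 (SE, adjusted p = 0.0079), and ASL was the only one of the 8 genes with a passing difference in that direction. The cord-labelled arrays were 20.9-fold higher than the liver-labelled ones.

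The arginases differed in spread. ARG1, the hepatic enzyme that releases urea, read 4.26, 4.29, 3.52 and 5.02 on the cord-labelled ABW arrays and 3.48, 4.61, 4.04 and 3.74 on the LBW arrays. On the liver-labelled arrays it was well above background on 3 of 6, at -3.18 and -5.78 in ABW and -5.53 in LBW, and in skeletal muscle on 1 of 8. ARG2 read -0.15, -1.09, -3.84 and 1.47 on the cord-labelled ABW arrays and -2.53, 1.74, -0.35 and -2.58 on the LBW arrays. Its range there was the widest of the 8 genes, and its lowest cord-labelled array lay only 0.11 above the highest liver-labelled one. Skeletal muscle and liver-labelled arrays overlapped for both arginases and did not differ beyond their spread (ARG1 -0.54 ± 0.76, ARG2 -0.04 ± 0.70, SE).

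GLS2, the liver-type glutaminase, had levels of 3.22 to 5.50 on the cord-labelled, -5.19 to -3.47 on the skeletal muscle and -5.99 to -4.87 on the liver-labelled arrays. It was well above background on all 22 arrays, and the difference between cord-labelled and liver-labelled arrays was 10.08 ± 0.32 (SE). Skeletal muscle exceeded the liver-labelled arrays by 1.09 ± 0.32 although the arrays overlapped (adjusted p = 0.0052).

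Between skeletal muscle and the liver-labelled arrays 6 of 8 genes passed, 5 higher in muscle and ASL lower, against 65.3% of all probes, 37.1% being higher and 28.1% lower. The 5 were CPS1, SLC25A15, NAGS, GLS2 and OTC. For OTC only 1 of 14 arrays was well above background. NAGS was so on 5 of 8 skeletal muscle arrays and on no liver-labelled array. No fold is given for either gene. The measured NAGS difference was 1.71 ± 0.29 (SE), a call lost with normexp background correction (0.51, limma adjusted p = 0.054). OTC was lost with quantile normalization (adjusted p = 0.152). Scaled to spike-in controls, CPS1 alone passed. The ASL difference was then larger, at -1.49 (limma adjusted p = 0.0501), while those of SLC25A15 and OTC were smaller, at 1.25 and 0.18. Slide 4 held both labels, as cord-labelled ABW and liver-labelled LBW arrays, 2 of each. Within that slide all 8 genes were higher on the cord-labelled arrays. The measured difference ran from 4.06 for ASL to 14.02 for CPS1, where the size rests on background, since no liver-labelled array was above it.

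Over the 22 arrays the probes most like CPS1 were ALB, the major plasma protein of hepatocytes (r = 0.993), and the accessions NM_000764, CO583355, NM_000277 and NM_021232, which carry no symbol here (r = 0.992 to 0.993). Those most like OTC were NM_014495, NM_152685, NM_194294, GLS2 and NM_021784 (r = 0.995 to 0.997). CPS1 and OTC themselves had r = 0.981. These values are descriptions, in which the 3 labels make up most of the spread.

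Of 34 other genes of nitrogen handling, 30 were on the array and 29 were kept. Between cord-labelled and liver-labelled arrays 27 of the 29 passed, 20 higher and 7 lower on the cord-labelled arrays, where 66.9% of all probes passed and 35.6% were higher, with a median difference of 3.97. The highest were SLC25A18, a mitochondrial glutamate carrier, at least 1008-fold, CA5A, the mitochondrial carbonic anhydrase that supplies bicarbonate to CPS1, at least 456-fold, the amino acid transporter SLC38A4 (9.81 ± 0.28, SE) and the alanine aminotransferase GPT (9.30 ± 0.45). On the liver-labelled arrays SLC38A4 was well above background on 1 of 6 and GPT on 5 of 6, so the size of the SLC38A4 difference rests mostly on background. Among the lowest were SLC7A1, a cationic amino acid transporter (-4.29 ± 0.43, well above background on 1 of 8 cord-labelled arrays), OAT, ornithine aminotransferase (-3.63 ± 0.59), and SLC25A12, an aspartate-glutamate carrier (-3.54 ± 0.39).

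The aspartate-glutamate carriers went opposite ways. SLC25A13 (citrin), the carrier of liver, was 3.97 ± 0.24 (SE) higher on the cord-labelled arrays, while SLC25A12 was lower. SLC25A13 was singled out after its values were seen.

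**Figure D2:**
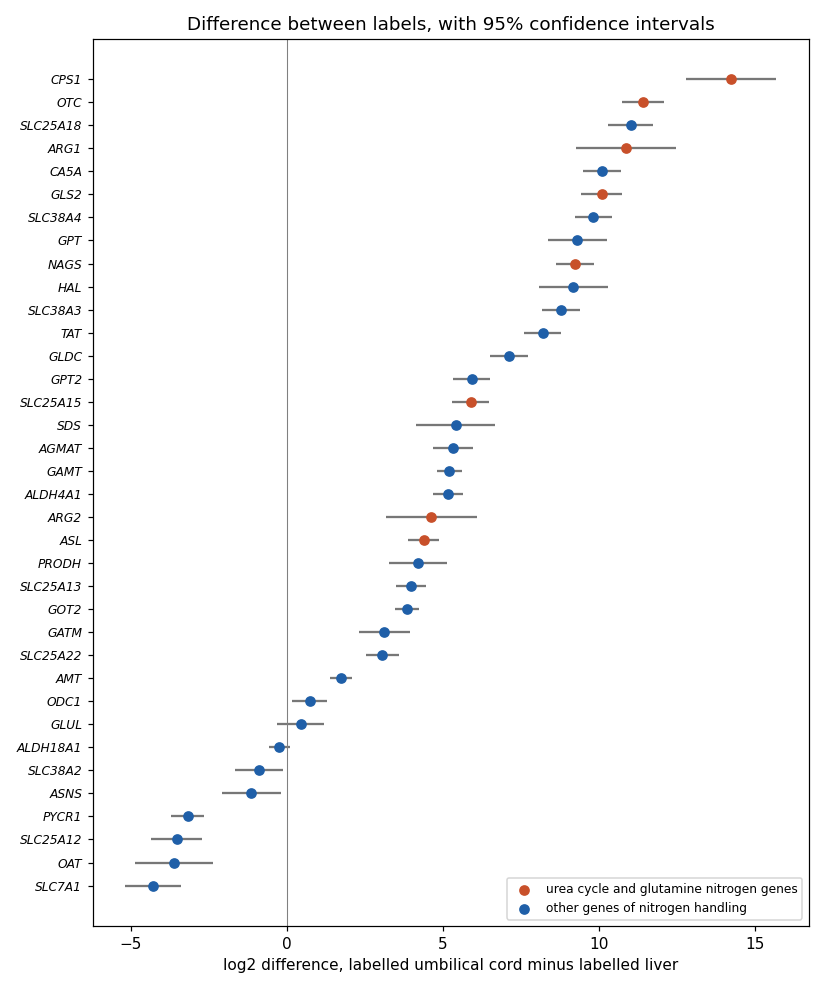
Difference between arrays labelled umbilical cord and those labelled liver, in log2 units with 95% confidence intervals, for the 8 genes and 28 of the 29 other genes of nitrogen handling. Positive values are higher on the cord-labelled arrays; CPS1 stands at 14.22 and SLC7A1 at -4.29. Measured differences are plotted, also where a label was below background.

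Skeletal muscle differed from the liver-labelled arrays for 24 of the 29 other genes, 17 higher and 7 lower, where 65.3% of all probes passed, 37.1% higher and 28.1% lower. The amino acid transporter SLC38A3 (7.45 ± 0.29, SE), the aminotransferases GPT2 (7.35 ± 0.28) and GPT (6.72 ± 0.45) and SLC38A4 (7.20 ± 0.28, with the same limit as above) exceeded the liver-labelled arrays by the most. OAT (-2.86 ± 0.59), SLC7A1 (-2.44 ± 0.43) and ALDH18A1, which makes the proline precursor (-1.47 ± 0.16), were among the lowest. Against the cord-labelled arrays 26 of 29 passed, 7 higher and 19 lower in muscle, where 64.9% of all probes passed and 29.1% were lower. SLC25A12 (5.33 ± 0.36), GLUL, glutamine synthetase (2.52 ± 0.34), and SLC38A2 (1.89 ± 0.34) were higher. SLC25A18 (-7.10 ± 0.31) was lower, and the glycine-cleaving GLDC was at least 167-fold lower. CA5A (-8.78 ± 0.27) and the histidine-degrading HAL (-8.32 ± 0.49) were lower too, each well above background on 2 of 8 skeletal muscle arrays, so that these sizes rest mostly on background.

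Among the 8 skeletal muscle arrays CPS1 and GLS2 moved with the hepatocyte markers. ABW replicate 3 had the highest summed hepatocyte signal, 32.1, with the highest CPS1 (-1.24) and GLS2 (-3.47), and was the only muscle array with OTC (-6.19) and ARG1 (-4.35) well above background. LBW replicate 3 came next in the sum, at 15.2, and in CPS1, at -2.78, and GLS2, at -3.70. Across the 8 arrays Spearman's rho with the mean log2 level of the 10 markers was 0.905 for CPS1 and 0.833 for GLS2, as a description over arrays that share 2 slides. It was 0.595 for ARG2, 0.357 for SLC25A15, -0.048 for ASL and 0.048 for NAGS, where ARG2 was well above background on 6 and NAGS on 5 of the arrays. For OTC it was 0.976 and for ARG1 it was 1. Each of these 2 was well above background on only 1 of the 8 arrays, so their order rests mostly on background. The part of hepatocyte RNA in the muscle levels was not tested.

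**Figure D3:**
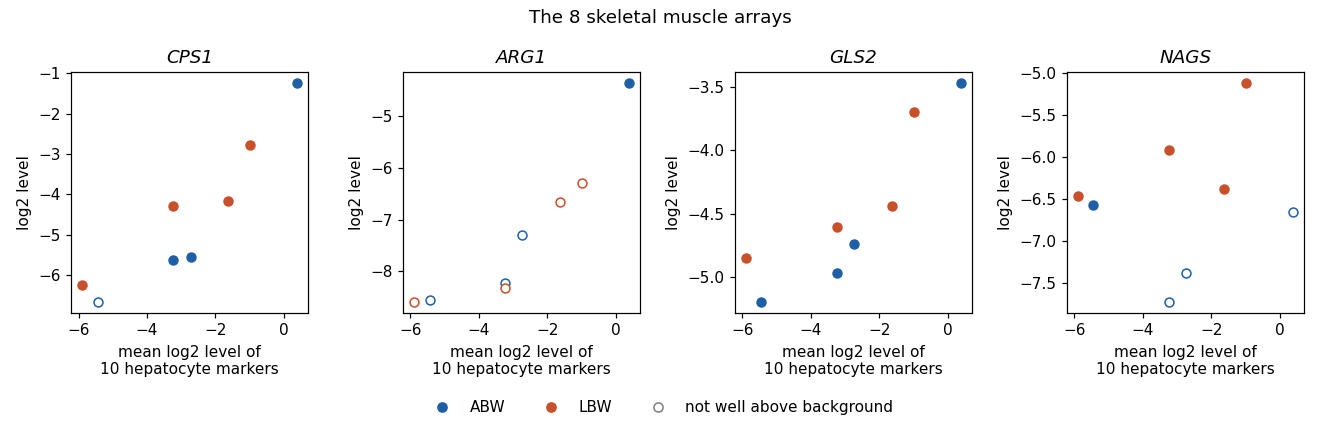
CPS1, ARG1, GLS2 and NAGS on the 8 skeletal muscle arrays, as log2 level against the mean log2 level of 10 hepatocyte markers. Filled points were well above background; ABW replicate 3 lies at the upper right for CPS1, ARG1 and GLS2, and is the only filled point for ARG1.

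The study asked which genes differ between LBW and ABW neonates. Within a label none of the 8 genes passed an adjusted p under 0.05, where 0% of all probes passed in skeletal muscle, 0% in the liver-labelled and 0.625% in the cord-labelled arrays (limma). The methods used a looser threshold, a p under 0.05 without adjustment and at least a 1.5-fold change. There 1 of 8 genes passed in skeletal muscle, against 12.2% of all probes, 2 in the liver-labelled arrays, against 4.71%, and 1 in the cord-labelled arrays, against 8.93%. These were NAGS in all 3 labels, and ARG2 in the liver-labelled arrays. At an unadjusted p under 0.05 alone the counts were the same. These p-values are those of limma, and on the liver-labelled arrays the count was 0 with the test that the methods name, with normexp background correction and with the fit of 6 groups.

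NAGS had the higher mean in LBW in skeletal muscle and on the cord-labelled arrays. On the cord-labelled arrays every LBW array lay above every ABW array, the values being those given above, which held for 2.65% of all probes. The gap was only 0.036, and with normexp, at 1.07 for ABW replicate 2 and 1.02 for LBW replicate 1, the groups overlapped. The difference was 1.42 ± 0.42 (SE, n = 4 and 4), or 2.68-fold, with an adjusted p of 0.305 in limma. An exact two-sided permutation p was 0.0286, the smallest that 4 against 4 arrays can give. With slide as a random block the limma adjusted p was 0.109. No slide held both groups of this label, so that fit cannot take out the effect of the slide. Without the ABW arrays of slide 6 the difference was 1.31 and without those of slide 4 it was 1.53.

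In skeletal muscle NAGS read -6.57, -7.73, -6.66 and -7.38 in ABW and -6.46, -5.92, -5.12 and -6.38 in LBW. The measured levels did not overlap, as for 8.61% of all probes, but only 1 of the 4 ABW arrays was well above background. The groups differed by 1.11 ± 0.37 (SE, limma adjusted p = 0.209). The signals behind these levels were 3 to 8 units in ABW and 8 to 10 in LBW. With normexp background correction the difference was 0.30 and the groups overlapped, with LBW replicate 4 at -3.53 and ABW replicate 2 at -3.37. The mean log2 level of 6 erythroid markers was -4.53 to -3.71 in ABW and -3.65 to -3.00 in LBW, without overlap. Their summed signal overlapped, at 2.93 to 15.2 in ABW and 11.6 to 34.3 in LBW. The summed signal of the 7 matrix genes was 43.8 to 79.8 in ABW and 24.0 to 59.7 in LBW. The part of these 2 lists in the NAGS difference was not tested. On the liver-labelled arrays NAGS was well above background on none of 6, so that neither a fold nor an order is given; the measured difference of 0.88 ± 0.24 (adjusted p = 0.783) was 0.04 with a floor on dim signals and 0.07 with normexp. Within slide 3, which held 3 ABW and 1 LBW array of that label, it was 0.50.

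Averaged over the 3 labels the measured NAGS difference was 1.14 ± 0.23 (SE, limma adjusted p = 0.017), higher in LBW. This mean includes the liver-labelled arrays, all below background, and skeletal muscle, where 1 of 4 ABW arrays was above it. NAGS was 1 of 8 genes that passed here, against 0.888% of all probes in either direction and 0.251% in this one. NAGS also stands in a list that the study chose on these samples, so this is not independent evidence. The call was lost with normexp background correction (0.55, adjusted p = 0.267), with a floor on dim signals (0.73, adjusted p = 0.110) and with scaling to spike-in controls (0.89, adjusted p = 0.99996). No interaction of birth weight and label passed for the 8 genes, against 1.01% of all probes, and none reached an unadjusted p under 0.05 in this overall test. Of its pairwise contrasts, that of ASL between skeletal muscle and cord-labelled arrays was -0.96, with a 95% interval of -1.87 to -0.04 before adjustment (limma adjusted p = 0.357).

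CPS1, which NAGS serves, differed by 0.48 ± 0.63 on the cord-labelled arrays (95% interval -0.93 to 1.89), and by -0.02 without the ABW arrays of slide 6. OTC differed by -0.33 ± 0.33, ARG1 by -0.30 ± 0.38, SLC25A15 by 0.06 ± 0.45 and ARG2 by -0.03 ± 1.18 there. ASL was 0.72 ± 0.39 (interval -0.15 to 1.58) and GLS2 0.60 ± 0.44 (interval -0.39 to 1.59). These groups overlapped, and a 2-fold difference in at least 1 direction lies within the interval of each of these 7 genes. The median difference of the 8 genes was 0.27 on the cord-labelled arrays beside -0.01 over all probes, -0.24 beside 0.07 in skeletal muscle and 0.09 beside 0.06 on the liver-labelled arrays.

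ARG2 on the liver-labelled arrays read -3.95, -4.62 and -5.95 in ABW and -5.93, -6.42 and -6.39 in LBW, a difference of -1.41 ± 0.50 (SE, limma adjusted p = 0.813). One LBW array lay above the lowest ABW array, and the difference was -1.09 within slide 3, against 1 LBW array, and -0.38 with normexp. ARG1 differed by -1.80 ± 1.49 under that label, resting on the 3 arrays with a level above background, and by 0.32 within slide 3. In skeletal muscle the differences other than that of NAGS ran from -0.69 ± 0.41 for ARG2 to 0.40 ± 1.14 for CPS1. With 1 array left out that of CPS1 ran from -0.23, without ABW replicate 1, to 1.58, without ABW replicate 3, the array with the highest hepatocyte signal.

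**Figure D4:**
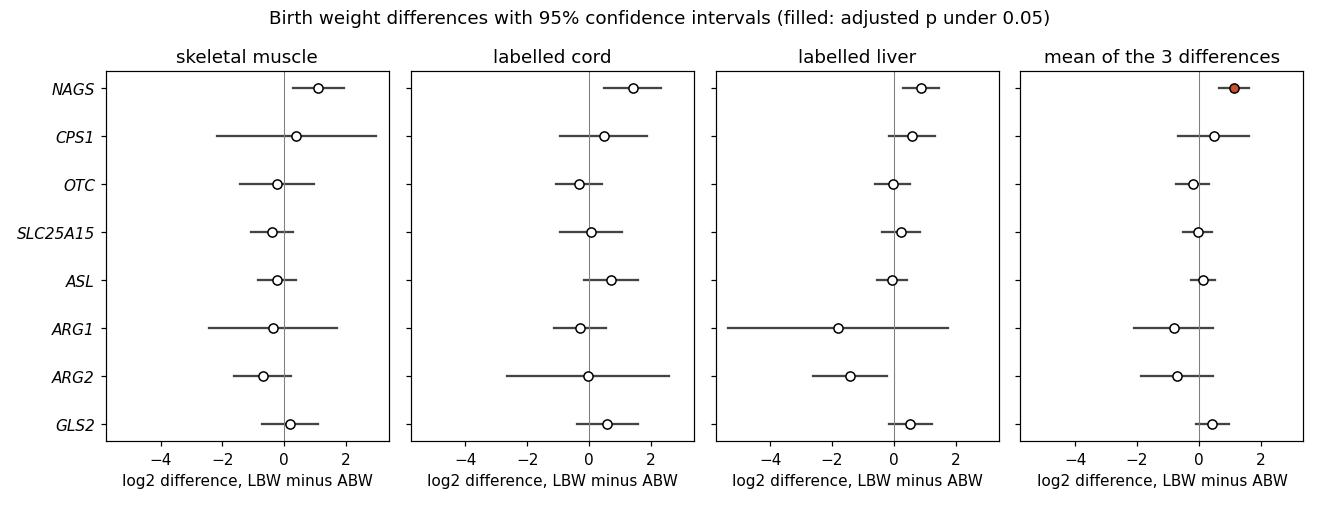
LBW minus ABW for the 8 genes under each label and as the mean of the 3 label differences, in log2 units with 95% confidence intervals. The only filled point, an adjusted p under 0.05, is NAGS for the mean, at 1.14.

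Of the 29 other genes of nitrogen handling none passed an adjusted p under 0.05 within a label, and 1, TAT, passed for the mean of the labels. TAT starts the breakdown of tyrosine. Its measured mean difference was 0.996 ± 0.228 (SE, limma adjusted p = 0.040), higher in LBW. By label it was 0.74 on the cord-labelled arrays and 1.14 on the liver-labelled ones, the latter 0.34 with a floor on dim signals. In skeletal muscle the difference was at least 2.07-fold on this scale. On the log2 scale it was only 0.33 there with normexp and 0.80 without LBW replicate 3. All 4 LBW and none of the ABW arrays of skeletal muscle had TAT well above background, as did 1 of 6 liver-labelled arrays. The call was lost in 21 of 39 alternatives, among them normexp (0.34, adjusted p = 0.375) and a floor on dim signals (0.71, adjusted p = 0.131). At the looser threshold 2 of the 29 passed in skeletal muscle, against 12.2% of all probes, 4 on the liver-labelled arrays, against 4.71%, and 3 on the cord-labelled arrays, against 8.93%. With 1 array left out, the count on the liver-labelled arrays was 1 to 5 (1 without LBW replicate 2, 2 without ABW replicate 1 or LBW replicate 3) and that on the cord-labelled arrays 1 to 4 (1 without ABW replicate 4, LBW replicate 3 or LBW replicate 4).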

How the data were processed

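RNA of 22 samples was hybridized to single-colour Agilent rhesus arrays. The intensity values that the authors deposited are signals of Agilent Feature Extraction (10.1.1.1 or, on slide 6, 10.5.1.1, per the file headers) after background subtraction, with flags for spots well above background. The authors also deposited log2 values made in GeneSpring, which the methods describe as normalized to the 75th percentile with a baseline transformation; these served as an alternative.

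The 2 spots of a probe were averaged without outlier spots, and log2 signals were reduced by the array's 75th percentile. Probes had to be well above background on 75% or more of a group's arrays, in at least 1 of the 6 groups. LBW was set against ABW within each label, and the 6 groups were fitted together for the mean of the label differences, the interaction and the differences between labels (limma 3.58.1, statmod 1.5.0, R 4.3.3), tested on simulated data. Tables were made in Python 3.11.15 (scipy 1.17.1, pandas 2.3.3, numpy 2.4.6). A normexp correction used median instead of mean spot signals, with an offset of 50.

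Genes were matched by accession, and symbols follow lists written for this work; the reference table of gene names held none of the 19376 accessions of the array, so no coordinates or sequences are given. All 8 genes, every probe, are named; of the other genes of nitrogen handling, up to 4 in each direction with an adjusted p under 0.05. Of these, 1 gene is not reported here, though the counts include it. Arrays of 1 birth weight group and number under different labels had correlations of their deviations from the group means of -0.29 to 0.38, over 0.1 in 1 of 8 pairs of skeletal muscle and cord-labelled, 1 of 6 of cord-labelled and liver-labelled and 0 of 6 of skeletal muscle and liver-labelled arrays. The labels do not say that a number marks an animal. The genes and lists were chosen with earlier results of these data known. The precision is limited by the number of arrays, 3 or 4 per group. Alternatives covered background correction, scaling, filters, a floor, outlier spots, averaging per accession, the methods' tests, pooled spread, blocks, array weights and leaving out each array.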

Additional observations from a re-analysis of the deposited data

Results flagged for a closer look

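ASL in skeletal muscle stood at -1.18 on the array of ABW replicate 4, while the other 3 ABW arrays lay between -0.45 and -0.43, a gap of 0.977 of the whole range. It was the only 1 found among 32 groups of 4 arrays, at a critical value that chance passes in about 5% of groups.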

How the results depend on the processing

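The counts of the 8 genes were repeated under the alternatives that apply to each comparison, each changing 1 choice, except that normexp also replaced the processed signal by the median spot signal and added an offset. All 8 genes passed between cord-labelled and liver-labelled arrays and between skeletal muscle and cord-labelled arrays in all 36 alternatives run. Between skeletal muscle and liver-labelled arrays the count fell from 6 to 1 with spike-in scaling, which moved the median difference of all probes there from 0.21 to -0.52; with 1 array left out it was 5 or 6, OTC being lost without liver-labelled LBW replicate 3. OTC was also lost with quantile normalization and NAGS with normexp, which left 5 genes each. No gene passed within skeletal muscle, within the liver-labelled arrays or for the interaction in any alternative. On the cord-labelled arrays NAGS passed, as 1 gene, when the spread came from the fit of 6 groups (adjusted p = 0.044; 0.044 to 0.99998 over its alternatives).

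For the mean of the 3 label differences the count of 1 fell to 0 with normexp, spike-in scaling and a floor, and stayed at 1 when any 1 array was left out (adjusted p of NAGS 0.0068 to 0.046).

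At the methods' threshold, the count of 1 in skeletal muscle was 0 with normexp and 2 with quantile normalization and with spike-in scaling, and 1 to 2 with 1 array left out (2, ARG2 and NAGS, without ABW replicate 2). The count of 2 on the liver-labelled arrays was 0 with normexp, the methods' test and the fit of 6 groups, and 1 with spike-in scaling, a floor, slide as a block and within slide 3 (ARG1 and ARG2 with the first 2; both slide fits rest on the 1 LBW array of slide 3, so that their call, of GLS2, says little); it was 1 to 3 with 1 array left out, and 1, NAGS, without ABW replicate 1 or without LBW replicate 2. The count of 1 on the cord-labelled arrays was 0 with spike-in scaling, 2 with the fit of 6 groups and with array weights, and 1 to 2 with 1 array left out (2, ASL and NAGS, without ABW replicate 4). The causes were not tested.

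Within a label, same-numbered ABW and LBW samples did not all deviate together (r -0.22 to 0.30), and a replicate block left the counts of LBW against ABW at 0, 0, 0 and 1. With a random replicate block across the labels the counts for the mean, the interaction and between labels stayed the same (NAGS mean 1.14, limma adjusted p = 0.012). The correlation estimated within these blocks was -0.029, so the block could not widen the error of the mean. Whether neonates shared between labels matter was therefore not tested by this fit. Of 864 alternative values of single genes in LBW against ABW, 50 changed sign, with no adjusted p under 0.692 among them. The deposited values were not used between labels, since they are centred within each. The 2 slide 6 and slide 4 omissions, the fit within slide 3 and the block across labels were chosen after seeing the data.

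For the 29 other genes of nitrogen handling the counts ran from 24 to 27 between cord-labelled and liver-labelled arrays, 15 (spike-in scaling) to 25 between skeletal muscle and liver-labelled, and 20 to 27 between skeletal muscle and cord-labelled arrays. At the methods' threshold they ran from 1 to 4 in skeletal muscle, 0 to 5 on the liver-labelled and 0 to 5 on the cord-labelled arrays, the 0 being with spike-in scaling in both.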
